A study of Mus musculus with 16 samples.

Results

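Interferon-stimulated genes are the genes that cells switch on when they sense interferons, and 35 of them were followed here in mouse liver. They were taken from a list of textbook members of the type I and type II interferon responses. That list was chosen with earlier results of these data known. On the array 30 of the 35 had a row of their own, out of 19938 genes with such a row. Gbp2, Gbp6, Igtp and Isg15 were measured only on rows that the annotation assigns to several genes, Ifi44 was not listed, and these 5 were not analysed here. All 30 measured members were tested, with no filter on low values. The samples were 7 arrays of mice labelled Pdgf-c transgenic and 9 arrays of wildtype mice, all of the C57BL/6 background. The labels give neither age nor treatment nor the promoter that drives the transgene. Nothing says that each sample is 1 animal, and p-values therefore measure the spread between these samples, which may be technical. Although the source is named as stromal cells, the protocol describes total RNA of the liver, and Alb, the albumin gene of hepatocytes, had means of 13.54 (transgenic) and 13.56 (wildtype) in log2 units. Values are log2 intensities as the authors deposited them, 1 unit being a 2-fold change, and differences are transgenic minus wildtype.

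Type I interferons (the alpha and beta interferons) bind a receptor of the Ifnar1 and Ifnar2 chains, and type II interferon (gamma) binds the Ifngr1 and Ifngr2 chains. Type I receptors act mainly through a complex that includes Stat2 and Irf9 and binds interferon-stimulated response elements (ISREs) near genes such as the Ifit, Oas and Mx families, whereas the gamma receptor acts mainly at gamma-activated sites (GAS) and through Irf1, with the Gbp and immunity-related GTPases among its best known targets. The families overlap, since many Gbp genes also answer type I interferon. In the liver, interferon-stimulated genes are expressed by hepatocytes, macrophages, endothelial cells and stromal cells.

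The response elements are shown first because they are the sequence feature by which interferon-stimulated genes are best known. RefSeq promoters of build GRCm38.p6, running from 250 bases before to 50 bases after a transcript start, were given for 26 of the 35 members. The ISRE core, searched on both strands as GAAA, any 2 bases and GAAA, was present in 15 of these 26 genes, against 3.99% of all 27025 genes in the promoter table. It was present in 8 of 13 members that were higher in the transgenic livers and in 4 of 9 that did not pass the test. Ifit2, Oasl1, Oasl2, Irf8 and Xaf1 were higher as well and had no match in their promoters. The GAS letters TTCNNNGAA, also read on both strands, were present in 7 of the 26, against 9.55% of all genes, and overlapped an ISRE match in Bst2. Sequences below are the 180 bases before the start, 5′ to 3′ on the strand of the gene, with every ISRE match in capitals. Only promoters that hold a match are printed. Those of Ifit1 and Ifit3 belong to nearby genes of 1 family that rose, those of Gbp3 and Irgm1 to GTPases of which the first rose and the other did not pass, and those of Oas1a and Oas3 to members of 1 cluster that differed in the same way.
Ifit1, chr19:34640709-34640888, plus strand: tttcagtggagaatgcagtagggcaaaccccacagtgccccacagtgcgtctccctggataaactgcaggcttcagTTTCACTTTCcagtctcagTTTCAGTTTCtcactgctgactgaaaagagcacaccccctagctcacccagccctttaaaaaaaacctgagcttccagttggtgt
Ifit3, chr19:34583349-34583528, plus strand: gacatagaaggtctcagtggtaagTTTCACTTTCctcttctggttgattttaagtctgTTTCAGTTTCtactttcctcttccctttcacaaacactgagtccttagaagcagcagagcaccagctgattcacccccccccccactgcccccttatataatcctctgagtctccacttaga
Gbp3, chr3:142559864-142560043, plus strand: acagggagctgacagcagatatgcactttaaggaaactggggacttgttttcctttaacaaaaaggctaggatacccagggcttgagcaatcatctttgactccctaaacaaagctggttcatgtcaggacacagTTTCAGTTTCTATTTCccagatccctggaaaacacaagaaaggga
Irgm1, chr11:48871421-48871600, minus strand: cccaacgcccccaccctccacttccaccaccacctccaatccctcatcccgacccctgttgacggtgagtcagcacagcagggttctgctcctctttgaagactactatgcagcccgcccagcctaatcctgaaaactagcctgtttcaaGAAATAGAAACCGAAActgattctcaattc
Oas1a, chr5:120907526-120907705, minus strand: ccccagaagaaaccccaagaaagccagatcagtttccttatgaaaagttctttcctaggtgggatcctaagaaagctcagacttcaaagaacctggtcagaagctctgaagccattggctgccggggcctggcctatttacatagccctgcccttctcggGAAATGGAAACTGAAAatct
Oas3, chr5:120777660-120777839, minus strand: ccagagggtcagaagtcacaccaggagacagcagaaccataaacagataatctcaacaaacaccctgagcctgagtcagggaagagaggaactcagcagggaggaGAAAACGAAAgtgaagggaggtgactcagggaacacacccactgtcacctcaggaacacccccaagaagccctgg
In Ifit1 and Ifit3 both matches lie on the opposite strand, and they begin 104 and 85 bases before the start of Ifit1 and 156 and 122 bases before that of Ifit3. In Gbp3, Irgm1 and Oas1a 2 matches overlap in 1 run of capitals close to the start. Those of Irgm1 and Oas1a lie on the strand of the gene and those of Gbp3 on the opposite strand. Gbp3 has a second promoter in the table, with 0 ISRE matches, which is not printed. A match describes letters in these windows and is not evidence of binding.

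Of the 30 measured members, 17 were higher in the transgenic livers and 0 were lower at an adjusted p of 0.05 (limma, adjusted over all 35557 rows). Over all 19938 genes, 12.1% were higher and 11.1% were lower by the same rule, and of all rows 18.9% passed in either direction. Counts called in the groups of members below are to be read beside these 12.1% and 11.1%. The members were chosen with earlier results of these data known, so these shares are set side by side as a description with no test. Over all rows, 3785 were higher and 2936 lower as deposited, and 2873 higher and 4688 lower with arrays centred on their medians. No member was lower at an unadjusted p under 0.05 either. The median member differed by 0.31, against -0.04 for the median of all genes. In 7 members, Ifit3, Oasl2, Gbp3, Irf8, Ddx58, Ifi27l2a and Trim30a, the lowest transgenic array exceeded the highest wildtype array, which held for 5.43% of all genes, while no member had all transgenic arrays below (3.65% of all genes). In RNA of a whole tissue, more cells of a type that expresses a gene and more RNA of that gene per cell cannot be told apart.

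**Figure D1:**
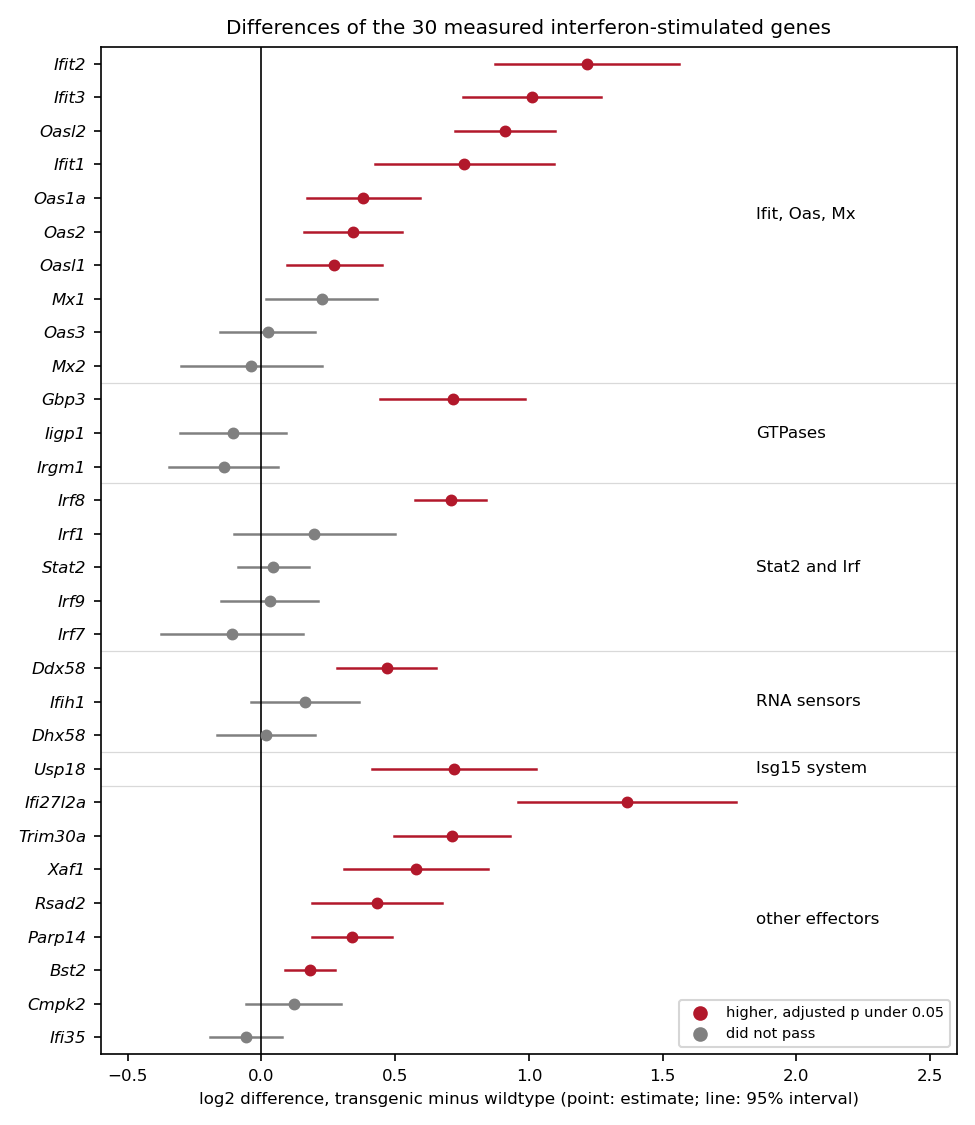
Log2 difference, transgenic minus wildtype, of the 30 measured members with 95% intervals (7 against 9 arrays), grouped by role. The 17 members that passed are in red; they run from Bst2 at 0.18 to Ifi27l2a at 1.37, and the 13 in grey lie between -0.14 and 0.22.

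The Ifit genes encode proteins with tetratricopeptide repeats that bind viral RNA or restrict its translation, and all 3 rose. Ifit3 ranged from 8.11 to 8.91 in the transgenic arrays (median 8.36) and from 6.98 to 7.69 in the wildtype arrays (median 7.40). The groups did not overlap, and the difference was 1.01 ± 0.12 (SE), a 2.02-fold rise (limma adjusted p = 8.09e-06). Ifit2 ranged from 4.94 to 6.21 in the transgenic arrays (median 5.73) and from 4.03 to 4.99 in the wildtype arrays (median 4.42). The lowest transgenic array fell below the highest wildtype array, wildtype array 9, and the other 6 lay above all wildtype arrays. Ifit2 rose 2.33-fold (1.22 ± 0.16, limma adjusted p = 2.63e-05). Ifit1 ranged from 6.25 to 7.32 in the transgenic arrays (median 6.65) and from 5.50 to 6.51 in the wildtype arrays (median 5.87), so that 5 of 7 transgenic arrays exceeded all wildtype arrays. Its rise was 1.69-fold (0.76 ± 0.16, limma adjusted p = 0.00195). Ifit3 has a close copy, Ifit3b, with a row of its own, and Oas1a shares a second row with Oas1g, so probes of these rows may read both copies.

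The Oas enzymes sense double-stranded RNA and make the short oligoadenylates that activate RNase L, and 4 of the 5 Oas and Oas-like members rose. Oasl2, an Oas-like protein with ubiquitin-like domains, ranged from 6.65 to 7.22 in the transgenic arrays (median 6.76) and from 5.70 to 6.15 in the wildtype arrays (median 5.93). The groups did not overlap, and the rise was 1.88-fold (0.91 ± 0.09, limma adjusted p = 6.64e-07), the smallest p in this family. Oas1a rose 1.30-fold (0.38 ± 0.10) and Oas2 1.27-fold (0.34 ± 0.09), with 6 and 4 of the 7 transgenic arrays above all wildtype arrays. Oasl1, which in mice restrains the translation of Irf7 mRNA, differed by 0.27 ± 0.08 (limma adjusted p = 0.0289). The call of Oasl1 was lost when transgenic array 1, 2, 6 or 7, or wildtype array 2, 3 or 8, was left out (adjusted p from 0.0519 to 0.0635), after quantile normalization (0.0839) and with arrays centred on their medians (0.0713). Oas3 ranged from 4.83 to 5.31 in the transgenic arrays and from 4.74 to 5.22 in the wildtype arrays, a difference of 0.02 with a 95% interval from -0.15 to 0.20, whose sign turned after quantile normalization and centring. The interval of Oas3 ends below the estimates of Oas1a and Oas2 but overlaps their intervals, and the difference between these genes was not tested.

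The Mx genes encode dynamin-like GTPases, and C57BL/6 mice carry a defective Mx1 allele, as most laboratory strains do. Mx1 ranged from 4.09 to 4.67 in the transgenic arrays (median 4.37) and from 3.93 to 4.38 in the wildtype arrays (median 4.10). The difference of 0.22, with an interval from 0.02 to 0.43, did not pass over all rows (limma adjusted p = 0.13). Mx2 ranged from 4.99 to 5.41 in the transgenic arrays and from 4.66 to 5.54 in the wildtype arrays. The transgenic arrays of Mx2 lay within the wildtype range (difference -0.04, interval -0.30 to 0.23).

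**Figure D2:**
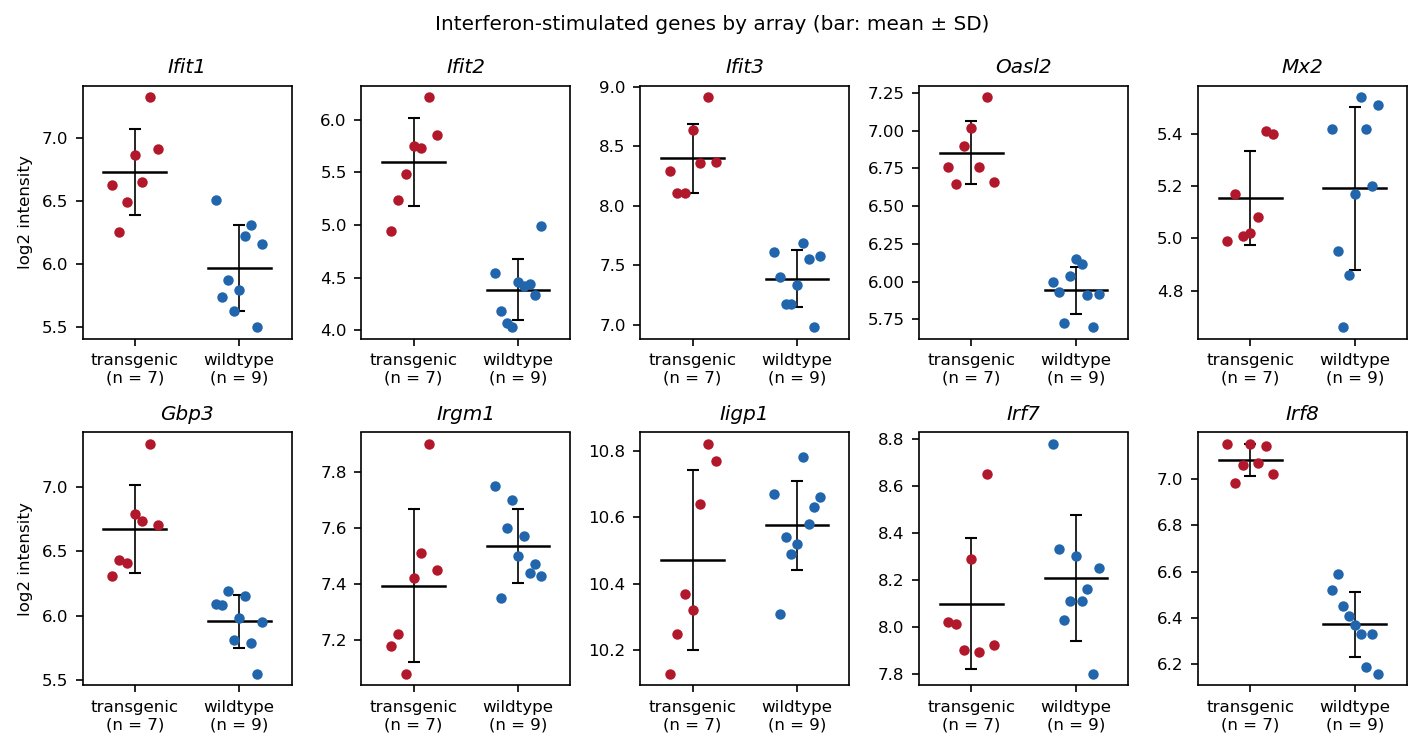
Log2 intensity of 10 members in each array, 7 transgenic at left and 9 wildtype at right of each panel, with the mean and SD as a bar and whiskers; each panel has its own axis, which does not start at 0. The groups do not overlap in Ifit3, Oasl2, Gbp3 and Irf8, and they overlap in Mx2, Irgm1, Iigp1 and Irf7.

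The gamma-like members with a row of their own were Gbp3, Irgm1 and Iigp1, GTPases that act on the membranes around intracellular microbes. Gbp3, a guanylate-binding protein, ranged from 6.31 to 7.33 in the transgenic arrays (median 6.70) and from 5.55 to 6.19 in the wildtype arrays (median 5.98). It rose 1.64-fold without overlap (0.72 ± 0.13, limma adjusted p = 0.00052). Irgm1, a regulator of the immunity-related GTPases, ranged from 7.08 to 7.90 in the transgenic arrays (median 7.42) and from 7.35 to 7.75 in the wildtype arrays (median 7.5). Iigp1, an effector of the same family, ranged from 10.13 to 10.82 in the transgenic arrays (median 10.37) and from 10.31 to 10.78 in the wildtype arrays (median 10.58). Neither passed the test: Irgm1 differed by -0.14 (interval -0.35 to 0.06) and Iigp1 by -0.11 (interval -0.30 to 0.09). Without transgenic array 6 Irgm1 differed by -0.23 (limma adjusted p = 0.0522), and over all fits that left out 1 array it ran from -0.23 to -0.09 (adjusted p from 0.0522 to 0.605). The transgenic arrays were more spread than the wildtype arrays in both genes, with an SD of 0.27 against 0.13 in each, and transgenic array 6 was the highest of its group in both.

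Set side by side, 7 of 10 type I-like members (Ifit, Oas and Mx) and 1 of 3 gamma-like members were higher, and the medians were 0.36 and -0.11. By the same test 12.1% of all genes were higher and 11.1% were lower, and a count out of 3 genes is coarse beside such shares. For each array the values were centred on the wildtype mean of each gene and averaged over either group. The type I-like mean lay between 0.35 and 0.83 in the transgenic arrays (median 0.49) and between -0.19 and 0.20 in the wildtype arrays (median 0.02). The gamma-like mean lay between -0.15 and 0.66 in the transgenic arrays (median 0.15) and between -0.14 and 0.15 in the wildtype arrays (median -0.02), so that the groups overlapped. The mean of the 3 gamma-like members over the transgenic arrays was 0.16, opposite in sign to their median difference, as Gbp3 had a positive difference and Irgm1 and Iigp1 negative ones. The type I-like mean exceeded the gamma-like mean by 0.17 to 0.52 in the transgenic arrays, and the difference ran from -0.27 to 0.16 in the wildtype arrays. Without transgenic array 6 the gamma-like mean of the transgenic group was 0.07 and the type I-like mean 0.46. These means are given as a description with no test.

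**Figure D3:**
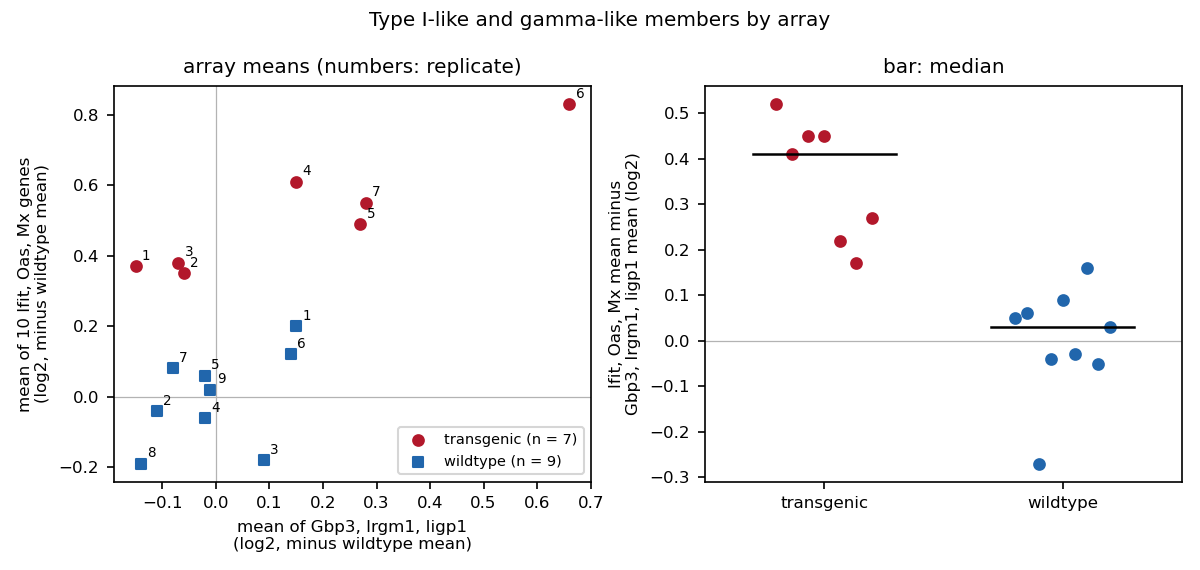
Left, the mean of the 10 type I-like members against the mean of the 3 gamma-like members in each array, both in log2 units relative to the wildtype mean of each gene; right, their difference, with medians as bars (7 transgenic, 9 wildtype arrays). All 7 transgenic arrays lie above all 9 wildtype arrays on the type I-like axis, while the groups overlap on the gamma-like axis and transgenic array 6 is highest on both.

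The gamma-like group rests on few genes, and other Gbp genes outside the member list were measured beside it. Of 6 further Gbp genes with rows of their own, 3 were higher and 0 were lower, with differences from 0.21 to 0.54. Over all genes 12.1% were higher and 11.1% lower. Gbp9 differed by 0.54 ± 0.13 and Gbp8 by 0.49 ± 0.10 (limma adjusted p = 0.00524 and 0.00146). Gbp7 differed by 0.37 ± 0.12 (limma adjusted p = 0.0362), and its call was lost when transgenic array 6 or 7, or wildtype array 1, 2, 4, 5, 7 or 8, was left out (0.0504 to 0.0835), after quantile normalization (0.0586) and with arrays centred (0.087). A list of 20 further genes induced mainly by gamma interferon, these Gbp genes included, had 13 with a row of their own. Gbp10 and the GTPase genes Irgm2, Tgtp1, Tgtp2 and Ifi47 were only on rows of several genes and were not analysed. Of the 13 measured genes 4 were higher and 1 was lower, with a median of 0.23. The lower gene was Upp1, a uridine phosphorylase, at -0.31 ± 0.11 (limma adjusted p = 0.0494), and its call was lost in 12 of the 16 fits that left out 1 array (0.0502 to 0.107). Ciita, the activator of class II antigen presentation genes, was among them at 0.42 ± 0.07, with no overlap of the groups. The chemokine genes Cxcl9 and Cxcl10 differed by 0.23 ± 0.18 and 0.46 ± 0.17 (limma adjusted p = 0.429 and 0.0715).

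Of the 5 transcription factors among the members, 1 passed, Irf8, beside 12.1% of all genes higher and 11.1% lower. Irf8, a factor of the monocyte, dendritic cell and B cell lineages, ranged from 6.98 to 7.15 in the transgenic arrays (median 7.07) and from 6.16 to 6.59 in the wildtype arrays (median 6.37). It rose 1.63-fold (0.71 ± 0.06, limma adjusted p = 1.76e-07), the smallest adjusted p of all members. Stat2 and Irf9, which bind together at the ISRE, differed by 0.05 (interval -0.09 to 0.18) and 0.03 (interval -0.15 to 0.21), and both signs turned with arrays centred on their medians. Irf7, which drives the genes of the alpha interferons, ranged from 7.89 to 8.65 in the transgenic arrays (median 8.01) and from 7.80 to 8.78 in the wildtype arrays (median 8.16). The groups of Irf7 overlapped over nearly their whole range (-0.11, interval -0.38 to 0.15). Irf1, the factor best known from the gamma response, differed by 0.20 (interval -0.10 to 0.50), and its second row gave 0.10 ± 0.08 (limma adjusted p = 0.43).

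Of the cytoplasmic RNA sensors, Ddx58, which recognises RNA with a 5′ triphosphate, was higher. It ranged from 7.52 to 8.17 in the transgenic arrays (median 7.70) and from 7.02 to 7.44 in the wildtype arrays (median 7.30), without overlap, and rose 1.38-fold (0.47 ± 0.09, limma adjusted p = 0.000772). Ifih1, which recognises long double-stranded RNA, differed by 0.16 (interval -0.04 to 0.37). Dhx58, a helicase that regulates the other two, differed by 0.02 (interval -0.17 to 0.20), with the opposite sign after quantile normalization and centring. Usp18, the protease that removes Isg15 from proteins and damps the type I receptor, ranged from 6.84 to 8.15 in the transgenic arrays (median 7.60) and from 6.71 to 7.23 in the wildtype arrays (median 6.79). It rose 1.65-fold (0.72 ± 0.15, limma adjusted p = 0.0015). Transgenic array 1 lay within the wildtype range of Usp18, and the other 6 lay above it.

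Of the 8 other effectors, 6 rose. Ifi27l2a, a small hydrophobic interferon-induced protein, ranged from 8.08 to 9.22 in the transgenic arrays (median 8.38) and from 6.79 to 7.83 in the wildtype arrays (median 7.05). It had the largest difference of the members, 1.37 ± 0.19, with no overlap (2.58-fold, limma adjusted p = 4.52e-05). Trim30a, a RING-finger protein of the Trim family, rose 1.64-fold (0.71 ± 0.10), also without overlap. Xaf1, a partner of the apoptosis inhibitor Xiap, rose 1.49-fold (0.58 ± 0.13), with transgenic array 3 the only transgenic array inside the wildtype range. Rsad2, the antiviral enzyme viperin, rose 1.35-fold (0.43 ± 0.12), while Cmpk2, a nucleotide kinase encoded next to it, differed by 0.12 (interval -0.06 to 0.30). Parp14, a mono-ADP-ribosyltransferase, rose 1.27-fold (0.34 ± 0.07). Bst2, the tetherin that holds budding viruses at the cell surface, rose 1.13-fold (0.18 ± 0.05, limma adjusted p = 0.00716), a call lost with arrays centred on their medians (0.0937). Ifi35, a leucine-zipper protein, differed by -0.06 (interval -0.19 to 0.08).

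**Figure D4:**
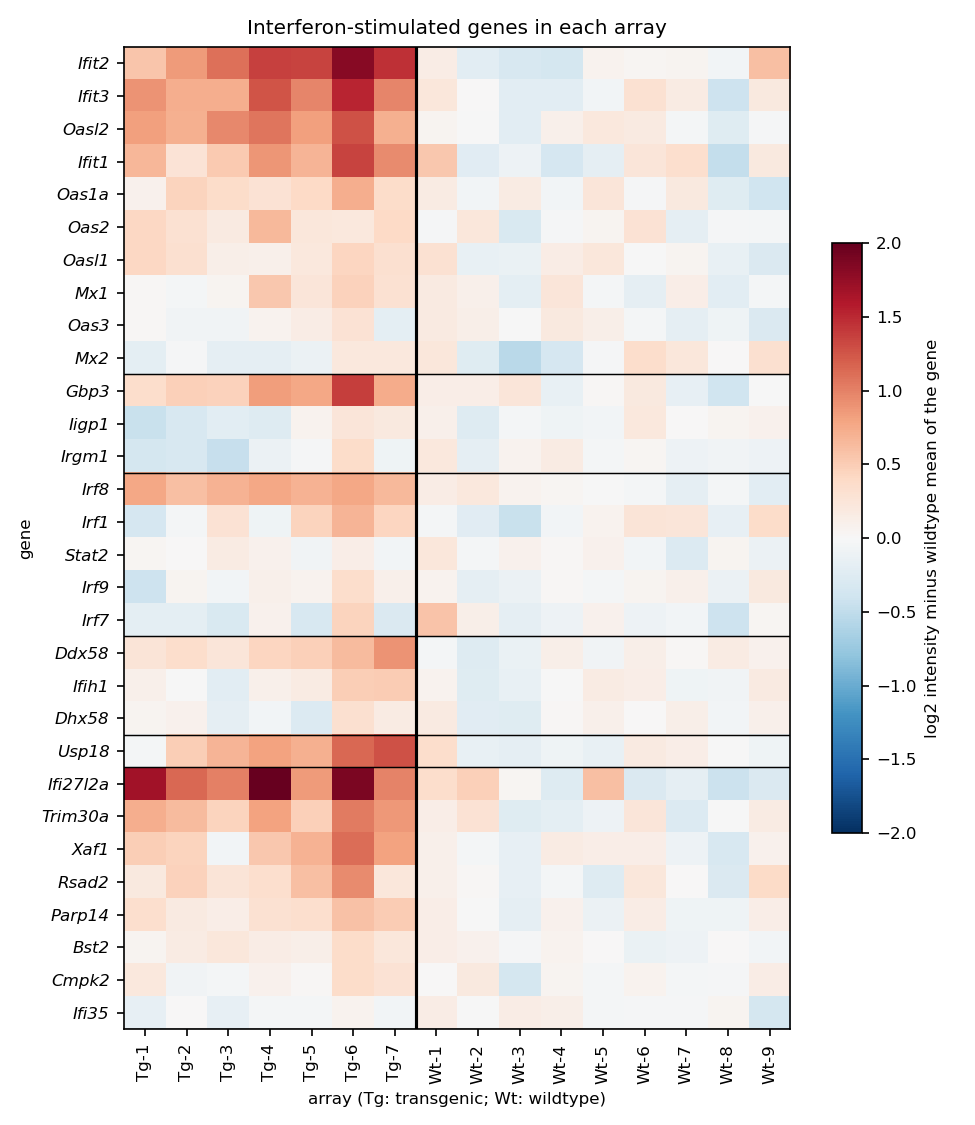
Log2 intensity of the 30 measured members minus the wildtype mean of each gene, in 7 transgenic arrays at left and 9 wildtype arrays at right, grouped as in the plot of differences with lines between groups. Red cells dominate the transgenic side of Ifit1, Ifit2, Ifit3, Oasl2, Gbp3, Irf8, Usp18 and Ifi27l2a, and transgenic array 6 is the highest transgenic array in 22 of 30 genes.

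Transgenic array 6 was the highest of its group in 22 of the 30 members, whereas it was the highest in 14.9% of all genes. Transgenic array 1 was the lowest in 11 of the 30, against 25.7% of all genes. Averaged over all 30 members, array 6 stood 0.72 above the wildtype mean, while the other 6 transgenic arrays stood between 0.22 and 0.46 above it and the wildtype arrays between -0.13 and 0.17. Without array 6, 16 members were higher and 0 were lower, Oasl1 being the member that no longer passed.

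Genes upstream of the members were read from lists of the pathway that hold no member. Counts called in these lists are to be read beside 12.1% of all genes higher and 11.1% lower. None of 14 interferon genes with a row of their own passed in either direction (limma), 2 of them had an unadjusted p under 0.05, 1 in each direction, and 12 of the 14 rows lay below the median of the table (5.26). Ifnb1 averaged 4.02 in both groups and Ifng 4.12 in transgenic and 4.17 in wildtype arrays, with differences of 0.00 ± 0.10 and -0.05 ± 0.11. Ifna12 had the smallest p of the rising interferon genes (0.30 ± 0.12, limma adjusted p = 0.0852) and lay below the 20th percentile of the table (3.45) in both groups. The other was Ifne (-0.15 ± 0.06, limma adjusted p = 0.0976). Over the list, 1 interferon gene was higher without transgenic array 1, without wildtype array 4, without transgenic array 1 and wildtype array 9 together, and with the mean over a gene's rows, and 1 was lower with arrays centred and with the floor at the 20th percentile. At these levels a small change in interferon RNA may not be visible on the array.

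Of 6 receptor chains, 3 were higher and 0 were lower. The gamma receptor chains Ifngr1 and Ifngr2 rose by 0.62 ± 0.08 and 0.34 ± 0.06, and Il10rb, a chain shared by the interferon lambda and interleukin 10 receptors, rose by 0.77 ± 0.08. In each of these 3 genes the groups did not overlap (limma adjusted p at most 0.000722). The type I receptor chains Ifnar1 and Ifnar2 differed by 0.09 ± 0.06 and 0.06 ± 0.04 (limma adjusted p = 0.365 and 0.402), and the lambda receptor chain Ifnlr1 by -0.03 ± 0.10. Among the kinases Jak1 differed by 0.14 ± 0.04 (limma adjusted p = 0.0146), a call lost with arrays centred (0.176), while Tyk2 differed by -0.02 ± 0.06. Jak2 differed by 0.19 ± 0.11 and passed only without transgenic array 1 (0.28, limma adjusted p = 0.044). Over the whole list of 14 receptor and signalling genes 4 were higher and 0 were lower. The feedback inhibitors Socs1 and Socs3 differed by 0.03 ± 0.07 and 0.10 ± 0.10.

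Of 15 genes of nucleic acid sensing and its signalling or control, 5 were higher and 1 was lower. After quantile normalization 4 of them were higher and 0 were lower. Tmem173, the adaptor of cytosolic DNA sensing also called Sting, rose by 1.10 ± 0.10 (limma adjusted p = 4.71e-07). The RNA-sensing receptors Tlr3 and Tlr7 rose by 0.72 ± 0.10 and 0.49 ± 0.10. Mavs, the adaptor of Ddx58 and Ifih1, differed by -0.13 ± 0.04 (limma adjusted p = 0.0357), and its call was lost when transgenic array 4, 6 or 7, or wildtype array 2, 3, 4, 5 or 8, was left out (0.0575 to 0.0823), after quantile normalization (0.172) and without the trend (0.0644). Of 2 further interferon regulatory factors, Irf2 was higher at 0.28 ± 0.08 (limma adjusted p = 0.023), a call lost with transgenic array 4 or 7 left out (0.0568 and 0.0564) and with arrays centred (0.0647). In a list of 30 further genes induced mainly by type I interferon, 12 were higher and 0 were lower, with a median of 0.12. Centred arrays gave 7 higher and 1 lower in that list, and leaving out transgenic array 6 gave 8 higher and 1 lower. The largest of its rises were Sp100, a nuclear body protein, at 1.24 ± 0.09, Ifi203, a protein of the Ifi200 family, at 1.02 ± 0.11 and Slfn2, of the Schlafen family, at 0.85 ± 0.13.

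**Figure D5:**
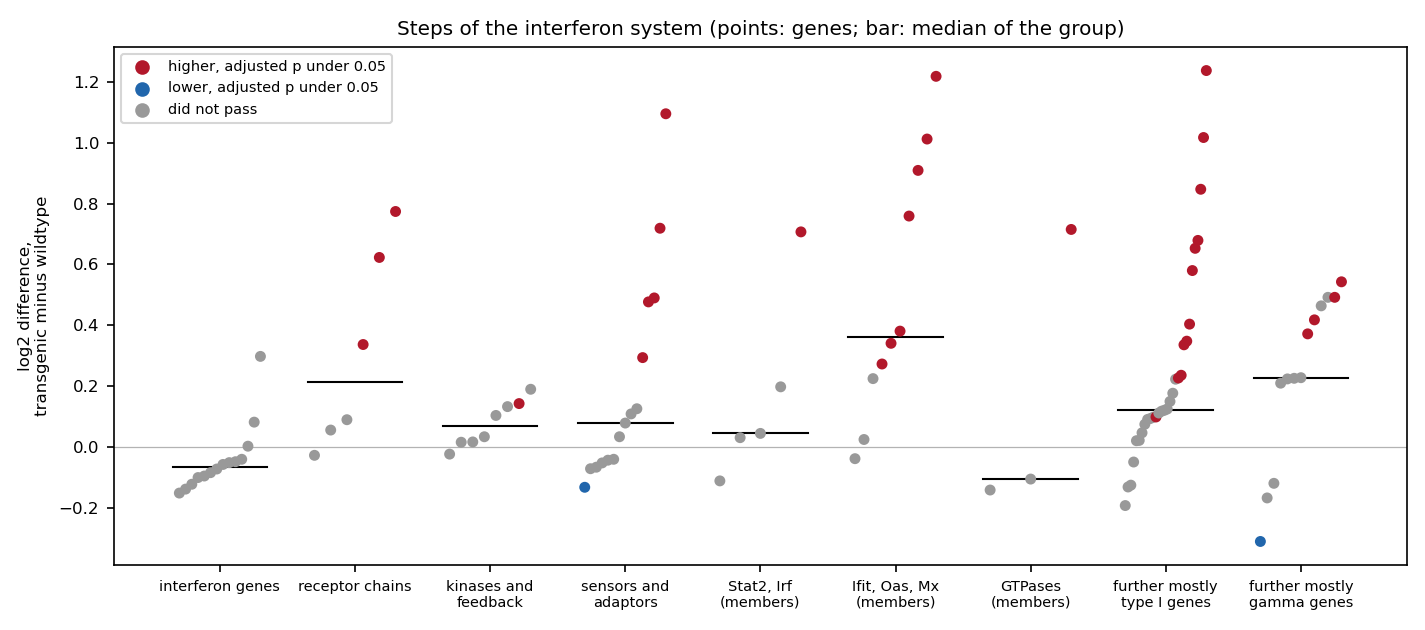
Log2 difference, transgenic minus wildtype, of the genes at each step of the interferon system, with the median of each group as a bar; red points were higher, blue points lower and grey points did not pass. The 14 interferon genes lie between -0.15 and 0.30 with no call, and the type I-like members reach 1.22.

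Markers of several other cells differed between the groups, to be read beside 12.1% of all genes higher and 11.1% lower. Of 6 leukocyte markers 5 were higher, and their mean log2 value ranged from 7.79 to 8.37 in the transgenic arrays and from 6.82 to 7.30 in the wildtype arrays. Of 8 monocyte and macrophage markers 7 were higher (6.96 to 7.5 in transgenic, 5.74 to 6.33 in wildtype arrays), led by Ms4a7, Cx3cr1 and Ccr2, and of 6 markers of conventional dendritic cells 4 were higher (5.29 to 5.4 in transgenic, 4.69 to 4.94 in wildtype arrays). All 6 markers of resident Kupffer cells were lower (5.10 to 6.16 in transgenic, 7.19 to 8.11 in wildtype arrays). Plasmacytoid dendritic cells are known for making alpha interferons, and of 5 of their markers that are no members, Ly6d and Tcf4 were higher, with means of 5.27 to 5.57 in transgenic and 4.92 to 5.14 in wildtype arrays. Their defining marker Siglech differed by 0.24 ± 0.10 (limma adjusted p = 0.0947). Ly6d stood at 7.67 in transgenic array 6, against a transgenic median of 5.85. Of 7 neutrophil markers 5 were higher (4.91 to 5.98 in transgenic, 4.04 to 4.36 in wildtype arrays), of 9 T and NK cell markers 3 were higher (4.63 to 4.99 and 4.41 to 4.61), and all 4 B and plasma cell markers were higher (4.70 to 5.18 and 4.0 to 4.47). All 6 stromal markers were higher (8.46 to 8.67 in transgenic, 5.88 to 6.49 in wildtype arrays), while of 6 endothelial markers 1 was higher and 3 were lower (6.61 to 7.08 and 7.34 to 7.74), and of 5 hepatocyte markers 1 was higher and 2 were lower (12.80 to 12.92 and 12.94 to 13.03). Transgenic array 6, the highest in most members, was also the highest transgenic array in the leukocyte markers, at 1.26 above the wildtype mean against 0.69 to 1.10 in the other 6. It was likewise the highest, by small margins, in the monocyte and macrophage (1.52, next array 1.48) and conventional dendritic cell markers (0.59, next array 0.58). Array 6 was also the highest in the T and NK cell (0.49, next array 0.35) and B and plasma cell markers (0.92, next array 0.85). In the neutrophil markers it was the lowest, at 0.71 against 0.83 to 1.78. The part of these cells in the differences of the members was not tested.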

How the data were processed

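Total RNA of the liver was measured on arrays of the type Affymetrix Mouse Gene 1.0 ST, per the labels. The values that the authors deposited are log2 intensities made with GCRMA, per the submitters' processing notes, which adjusts each probe's background from its sequence before normalizing and summarising; its version and settings are not given in the sources used here, and the log base was read from the range of 0.71 to 14.67. How such background adjustment changes the differences of dim rows was not tested. No detection calls or batches were analysed here.

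Of 35557 rows, 21789 were listed with 1 gene symbol, 1621 with several and 12147 were unlisted. For each gene the brightest single-symbol row, averaged across the 16 arrays, was used. Groups were taken from the sample titles and tested in limma 3.58.1 under R 4.3.3 (lmFit, eBayes with a trend, two-sided, Benjamini-Hochberg over all rows, threshold 0.05, no filter), which was tested on simulated data. Precision is limited by the number of arrays. Named genes were all members, Pdgfc, Pdgfra and Pdgfrb, the receptor chains, the interferon gene with the smallest p, and up to 3 called genes by size from each other list; Alb, the kinases and Socs genes, Gbp7, Upp1, Cxcl9, Cxcl10, Mavs, Ifnb1, Ifng, Ifne, Ifit3b and Siglech were chosen for naming once their values had been seen. The label genes Pdgfc, Pdgfra and Pdgfrb differed by 0.44, 3.17 and 2.02. The members and lists were chosen with earlier results of these data known.

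Alternatives were quantile normalization, centred arrays, a replicate block, a floor at the 20th percentile, array weights, only rows above the median level, eBayes robust or without its trend, averaging all rows of a gene, and leaving out arrays. The pathway genes were put through these alternatives after their values were seen. Plots were drawn with matplotlib 3.10.9.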

Additional observations from a re-analysis of the deposited data

Results flagged for a closer look

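In 60 sets of values (30 members in 2 groups) the highest and lowest array were compared with their neighbours by Dixon's criterion, which marks about 1 set in 20 by chance, and 2 sets were marked. Cmpk2 stood at 4.54 in wildtype array 3, with the next wildtype array at 4.84. Ifi35 stood at 8.35 in wildtype array 9, with the next wildtype array at 8.66. Neither gene had passed the test between the groups.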

How the results depend on the processing

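Members called higher numbered 14 to 17 under the alternatives run (17 as reported), 15 with centred arrays, 16 after quantile normalization and 16 to 17 with 1 array left out; 0 were called lower under any of them. Same-numbered arrays deviated with correlations of -0.019 to 0.086, 0 of 7 pairs above 0.1 and none most alike with its own number. Over all rows the numbers thus showed no sign of pairing, although a link that touches few genes would not be seen this way. With the replicate block 14 members were higher, Oas1a (adjusted p = 0.0697), Oasl1 (0.0959) and Bst2 (0.0878) no longer passing, and 0 pathway genes were lower. With centred arrays 4688 rows were lower (2936 as reported), 17 pathway genes were higher (26 as reported) and 4 were lower (2 as reported); 0 were lower without the trend and 1 with array weights, and the cause was not tested. The type I-like median was 0.57 on rows above the median level, where 6 of the 10 genes remain, and 0.334 to 0.38 with 1 array left out. The gamma-like median of -0.105 ran from -0.164 (without transgenic array 6) to -0.049 (without transgenic array 1), was -0.068 without transgenic array 2 and -0.039 without transgenic array 1 and wildtype array 9. Leaving out both of these gave 1 lower pathway gene, and leaving out 1 array gave 0 to 2.

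Signs turned only for members that had not passed. After quantile normalization these were Oas3 (-0.012), Irf9 (-0.025) and Dhx58 (-0.065); with centred arrays Oas3 (-0.026), Stat2 (-0.006), Irf9 (-0.019) and Dhx58 (-0.032); with array weights Dhx58 (-0.004); with the replicate block Oas3 (-0.029) and Mx2 (0.009). With 1 array left out, Oas3 ran from -0.018 to 0.061, Mx2 from -0.104 to 0.005, Irf9 from -0.022 to 0.105 and Dhx58 from -0.032 to 0.066. Without transgenic array 1 and wildtype array 9 together Oas3 gave -0.012, Mx2 0.03 and Irf9 0.129. The mean over a gene's rows was not run for the counts of rows. Dim rows near the array's floor, such as most interferon genes, limit what can be seen.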
